A study of Mus musculus with 5 samples.

Results

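Interferon-stimulated genes are the genes that cells switch on when interferon binds its receptor. A list of 35 of them was followed here: factors that carry the interferon signal, sensors of viral nucleic acid, antiviral effectors and interferon-induced GTPases. Members were matched by gene symbol, and 34 of the 35 had a row among the 23234 genes of the table. Of these, 24 reached the level required for testing, 1 FPKM or more in 2 or more of the 5 libraries. FPKM is the number of sequenced fragments of a gene scaled to its transcript length and to all mapped fragments of the library, so it can be compared between genes of different length. Ifi27 had no row under that symbol. RefSeq lists Ifi27 as a synonym of Ifi27l1, which was kept apart from the members because the name alone does not settle the match.

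The libraries came from mouse germinal centre B cells of the light zone, the region where B cells test their receptor on antigen and meet helper T cells. Naive CD45.1/2 B cells with a rearranged heavy chain that favours binding of the hapten NP (B1-8hi KI/+) and a tamoxifen-inducible Cre (ERT2cre KI/+) were transferred into C57BL/6J mice. The donor cells were either Csk(+/+) or homozygous for a floxed Csk allele, Csk(fl/fl), labelled Csk(f/f) for the libraries. Csk is the kinase that places the inhibitory phosphate on Src family kinases such as Lyn, which start B cell receptor signalling. Recipients received NP-CGG with alum on day 0 and tamoxifen on days 8 and 9, and NP-binding donor light zone cells were sorted on day 11, about 10000 per library. Both groups carried the Cre and received tamoxifen, and the hosts kept their own immune system. The ages of the animals are not given in the sources used here. There were 3 Csk(+/+) and 2 Csk(f/f) libraries, described by the submitters as biological replicates. The p-values measure the spread between these 5 libraries.

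Type I interferons signal through the receptor chains Ifnar1 and Ifnar2 to a complex that holds Stat2 and Irf9 and binds the interferon-stimulated response element in promoters. Interferon gamma acts mainly through gamma-activated sites, and it is a strong inducer of the immunity-related and guanylate-binding GTPases. Many interferon-stimulated genes also have a basal level in lymphocytes without added interferon.

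The promoter sequences show the letters this pathway reads. Of the 35 members, 25 had an entry in the RefSeq promoter table of the GRCm38.p6 build, which holds 250 bases before to 50 bases after each gene's start. The response element core was searched as GAAANNGAAA on both strands and was found in 14 of the 25 member promoters (56%), against 1079 of 27025 promoters in the whole table (3.99%). The core of the gamma-activated site, TTCNNNGAA, reads the same on both strands and was found in 7 of 25 (28%), against 9.55% of all promoters. A match to one motif may overlap a match to the other. A match describes the letters in this window and is not a measured binding site. The windows of 4 GTPase genes are shown because the results below turn on these genes. Those of Isg15, Ifit1 and Ifit3 are shown because they hold 2 or 3 matches each while the transcripts were under 10 FPKM. Oas1a, with 2 matches and a mean of 2.97 FPKM, met the same measure and is not shown. Each window shown runs 5′ to 3′ along the gene's own strand, with the matched letters in capitals and up to 20 bases on either side.
Gbp3 (chr3:142559979-142560034, plus strand): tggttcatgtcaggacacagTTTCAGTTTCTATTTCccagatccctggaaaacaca
Gbp2 (chr3:142620584-142620633, plus strand): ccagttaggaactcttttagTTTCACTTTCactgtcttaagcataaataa
Irgm1 (chr11:48871421-48871470, minus strand): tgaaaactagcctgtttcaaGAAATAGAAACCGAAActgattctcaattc
Igtp (chr11:58199502-58199551, plus strand): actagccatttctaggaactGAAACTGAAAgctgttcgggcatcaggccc
Isg15 (chr4:156200855-156200916, minus strand): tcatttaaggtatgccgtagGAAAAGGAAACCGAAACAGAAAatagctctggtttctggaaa
Ifit1 (chr19:34640765-34640833, plus strand): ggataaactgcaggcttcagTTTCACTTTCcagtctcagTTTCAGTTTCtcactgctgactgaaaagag
Ifit3 (chr19:34583353-34583436, plus strand): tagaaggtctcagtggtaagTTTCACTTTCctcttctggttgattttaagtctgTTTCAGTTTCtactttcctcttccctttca

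Germinal centre markers were high in all libraries, with a summed level of 834 to 884 FPKM over 7 genes. The summed level of 6 light zone markers was 1004 to 1075 in Csk(+/+) and 1276 to 1319 in Csk(f/f)-labelled libraries, and that of 5 dark zone markers was 237 to 269 and 207 to 222. Within the light zone markers, Cd83, Cd40 and Il4i1 were higher without overlap. Cd86 was lower without overlap (80.5, 73.2 and 76.0 against 63.4 and 56.9 FPKM), and Egr1 and Nfkbia overlapped. Within the dark zone markers, Ccnb1, Cdc20, Plk1 and Hmmr were lower without overlap. Cxcr4 overlapped (63.5, 61.5 and 58.6 against 65.2 and 62.8 FPKM). Summed over 5 plasma cell markers, the level was 220 to 258 FPKM in Csk(+/+) and 199 to 221 in Csk(f/f)-labelled libraries. Most of it was Xbp1 and Igj, which went opposite ways. Xbp1 was higher (79.8, 87.4 and 93.4 against 116 and 101 FPKM) and Igj lower (128, 119 and 157 against 91.1 and 79.5). Sdc1 and Prdm1 did not exceed 0.808 and 0.458 FPKM. Erythroid markers were the largest signal from outside the B lineage. Their summed levels were 140.3, 783 and 398 FPKM in Csk(+/+) and 380.3 and 100.4 in Csk(f/f)-labelled libraries, mostly Hba-a1. Their part in the results was not tested. Summed over 7 T cell markers the level was 0.00344 to 0.645 FPKM, with Cd3e, Cd3g and Trat1 at 0 throughout and Cd3d above 0 in every library. Over 5 natural killer markers it was 0.817 to 1.95 FPKM, most of it from Prf1, with Ncr1, Nkg7 and Gzma at 0 throughout. Of 10 macrophage markers, Mertk was at 0 throughout, and the summed level was 2.69 to 9.13 in Csk(+/+) and 11.7 to 13.9 in Csk(f/f)-labelled libraries, most of it Lyz2. The 6 markers of plasmacytoid dendritic cells, the strongest producers of type I interferon, summed to 54.7 to 60.2 FPKM in Csk(+/+) and 54.2 to 63.4 in Csk(f/f)-labelled libraries. Nearly all of this was Pacsin1 (39.7 to 54.3) and Tcf4 (8.54 to 14.9), while Siglech did not exceed 0.228 FPKM. Depth was estimated at 9.75 M to 23.8 M fragments (M, mega) from the spacing of low FPKM values.

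Csk, the targeted gene, was not lower in the libraries labelled for its loss. FPKM of Csk was 378, 436 and 415 in Csk(+/+), and 453 and 476 in Csk(f/f)-labelled libraries. Both Csk(f/f)-labelled values lay above all 3 Csk(+/+) values. The log2 difference was 0.18, with a 95% interval of -0.14 to 0.50 and an adjusted p of 0.439 in limma, and a two-sided exact permutation test gave p = 0.2, where 3 libraries against 2 cannot go below 0.1. With the correction for transcript GC content described below, the difference was -0.14. Which exons are floxed is not given in the sources used here, and a gene-level FPKM can miss the loss of a part of a transcript. Because of this, the group is called Csk(f/f)-labelled throughout.

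None of the 24 tested interferon-stimulated genes differed between the groups at an adjusted p under 0.05 in limma. Over all 10242 tested genes, 8 passed (0.0781%). At an unadjusted p under 0.05, 1 member was higher (Irf7) and 1 was lower (Gbp3) in Csk(f/f)-labelled libraries, where 8.07% of all tested genes were higher and 13.6% lower. The groups did not overlap for 4 members with higher Csk(f/f)-labelled values (Irf7, Irf9, Dhx58 and Ifi35) and for 4 that were lower (Gbp3, Parp9, Parp14 and Xaf1), a share of 4 in 24 (16.7%) each way. Over all tested genes, 20.7% did not overlap with higher and 24.5% with lower Csk(f/f)-labelled values. These counts of the members are near what the shares over all genes give. Differences are given as Csk(f/f)-labelled minus Csk(+/+) on log2(FPKM + 1), which understates the change of low genes. The median difference of the 24 members was -0.03, beside -0.01 over all tested genes, and 11 members had a higher and 13 a lower mean. In sorted populations such as these, fewer cells of a type and less RNA per cell cannot be told apart.

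**Figure D1:**
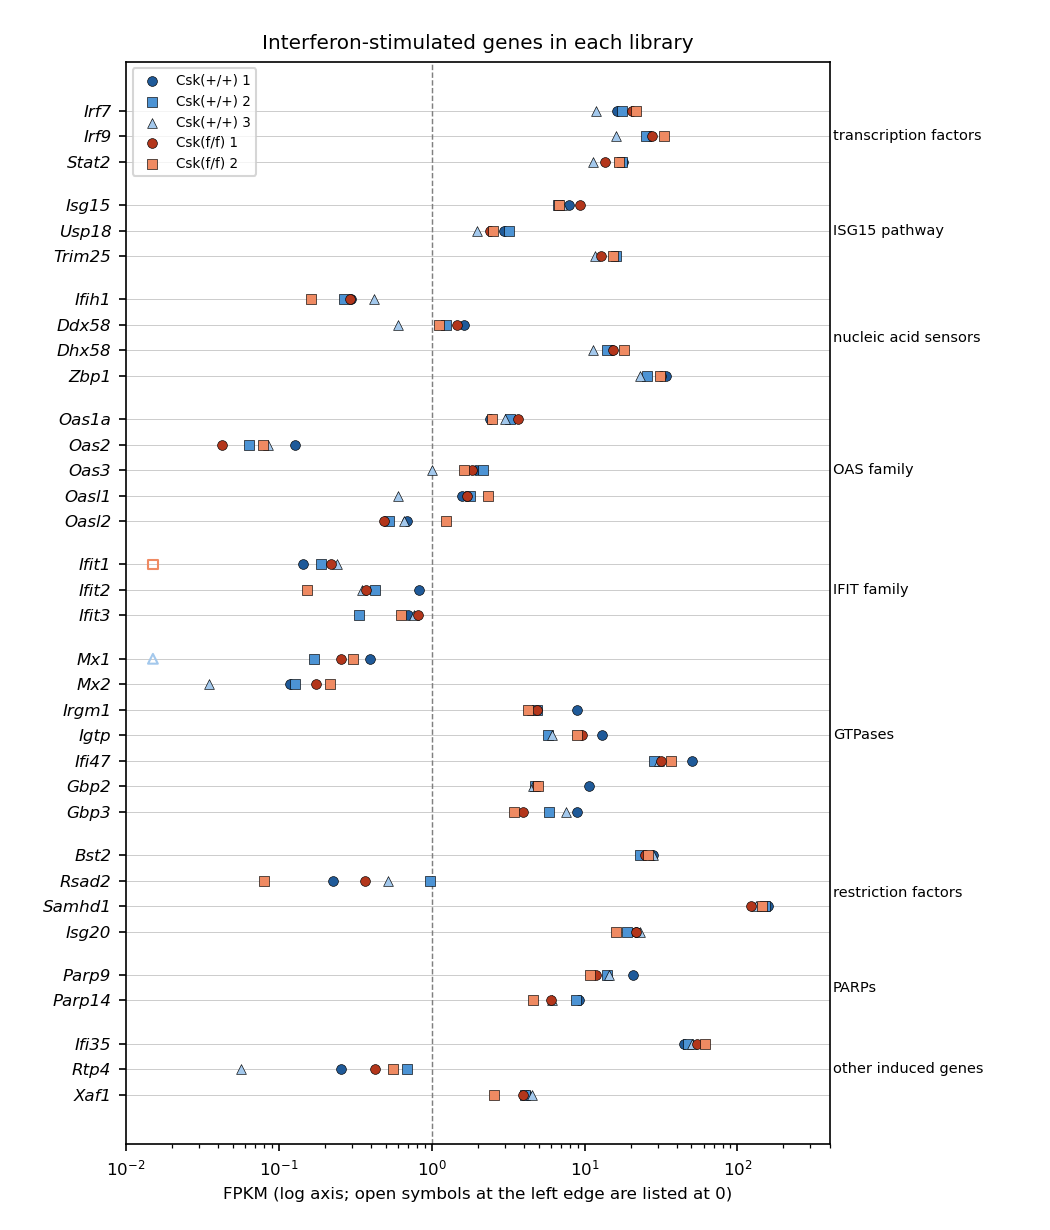
FPKM of the 34 interferon-stimulated genes in each of the 5 libraries, on a log axis and grouped by role. Blue symbols are the 3 Csk(+/+) libraries, red and orange symbols the 2 Csk(f/f)-labelled libraries, and the dashed line marks 1 FPKM. Samhd1 lies above 100 FPKM in every library and all 3 Ifit genes below 1.

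The signalling factors were well expressed. Irf7, the transcription factor that amplifies type I interferon production, stood at 16.2, 17.6 and 11.9 FPKM in Csk(+/+) and at 20.3 and 21.6 in Csk(f/f)-labelled libraries. Both Csk(f/f)-labelled values lay above all 3 Csk(+/+) values. Its log2 difference was 0.45 ± 0.19 (SE), adjusted p = 0.228. Irf9, the DNA-binding subunit of the type I interferon complex, stood at 26.8, 25.1 and 16.2 FPKM and at 27.5 and 32.9, and its highest Csk(+/+) value lay just under the lower Csk(f/f)-labelled one. The log2 difference of Irf9 was 0.42 ± 0.23 (SE), adjusted p = 0.303, and it was 0.20 without Csk(+/+) replicate 3. Without that library Irf7 was at 0.29. For Stat2, the partner of Irf9 in that complex, the groups overlapped, with 11.3 to 17.9 FPKM in Csk(+/+) and 13.5 to 16.9 in Csk(f/f)-labelled libraries.

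The Isg15 pathway attaches the ubiquitin-like protein Isg15 to other proteins. Trim25, a ubiquitin and Isg15 ligase that also activates the RNA sensor RIG-I, was its most abundant member at 15.9, 16.1 and 11.6 FPKM in Csk(+/+) and 12.7 and 15.3 in Csk(f/f)-labelled libraries. These ranges overlapped, and the log2 difference was -0.04 ± 0.19 (SE), adjusted p = 0.916. Isg15 itself was at 7.24 ± 0.574 FPKM (SD, n = 3) in Csk(+/+), against 8.04 ± 1.77 (SD, n = 2) with the Csk(f/f) label. Usp18, the protease that removes Isg15 and also restrains the type I receptor, was at 2.72 ± 0.651 (SD, n = 3) and 2.45 ± 0.0762 (SD, n = 2). The groups overlapped for both.

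Among the nucleic acid sensors, Zbp1, which recognizes Z-form nucleic acid, was the most abundant. It stood at 34.1, 25.5 and 23.0 FPKM in Csk(+/+) and at 31.7 and 31.1 in Csk(f/f)-labelled libraries. The Csk(f/f)-labelled values fell inside the Csk(+/+) range, and the log2 difference was 0.20 ± 0.18 (SE), adjusted p = 0.520. Zbp1 was at 0.36 without Csk(+/+) replicate 1 and at 0.089 without replicate 3. Of the 3 RIG-I-like receptors, Dhx58 (LGP2), the regulatory member, was at 13.4 ± 1.90 FPKM (SD, n = 3) and 16.7 ± 2.07 (SD, n = 2). The signalling members were much lower, with Ddx58 (RIG-I) at a mean of 1.16 and 1.29 FPKM and Ifih1 (MDA5) between 0.162 and 0.420 in all libraries. Dhx58 did not overlap between the groups, with the lowest Csk(f/f)-labelled library at 15.3 and the highest Csk(+/+) library at 15.0 FPKM.

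The oligoadenylate synthetases make the second messenger that activates RNase L. Oas1a, the most abundant of the 5 listed, stood at 2.40, 3.27 and 3.04 FPKM in Csk(+/+) and at 3.66 and 2.47 in Csk(f/f)-labelled libraries. The 2 groups overlapped, with a log2 difference of 0.05 ± 0.22 (SE) and an adjusted p of 0.907. Oas3 had a mean of 1.71 and 1.73 FPKM. The synthetase-like Oasl1, which represses translation of Irf7 mRNA, had a mean of 1.32 and 2.03, with overlapping libraries. Oas2 did not exceed 0.127 FPKM, and Oasl2 did not exceed 1.24. Oas1a lies in a cluster of near-identical Oas1 genes, and how the authors' software divided shared reads among them is not given in the sources used here, so its level is uncertain.

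The Ifit proteins bind viral RNA and are among the genes that rise most after type I interferon. All 3 were close to the floor. Ifit3, the highest, stood at 0.699, 0.334 and 0.768 FPKM in Csk(+/+) and at 0.816 and 0.630 in Csk(f/f)-labelled libraries, and the groups overlapped. At the estimated depths this is about 10.7 to 33.9 fragments in the Csk(f/f)-labelled libraries. Ifit2 did not exceed 0.821 and Ifit1 did not exceed 0.239 FPKM, and Ifit1 was listed at 0 in Csk(f/f)-labelled replicate 2. All 3 were under the level for testing, so no group difference is given for them. With no filter all 34 members of the table were tested and none passed the adjusted threshold. Ifit3 has a near-identical neighbour, Ifit3b, so its value carries the same uncertainty as that of Oas1a.

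The restriction factors held the most abundant member. Samhd1, which hydrolyses deoxynucleotides, stood at 158, 152 and 131 FPKM in Csk(+/+) and at 123 and 144 in Csk(f/f)-labelled libraries. These values overlapped, and the log2 difference was -0.14 ± 0.14 (SE), adjusted p = 0.569. With 1 library left out, Samhd1 ran from -0.25 (without Csk(f/f)-labelled replicate 2) to -0.027 (without Csk(f/f)-labelled replicate 1). Bst2 (tetherin), which holds budding virions at the cell surface, was at 26.5 ± 3.04 FPKM (SD, n = 3) and 25.3 ± 0.670 (SD, n = 2), and the exonuclease Isg20 was at 21.1 ± 2.099 and 18.8 ± 3.89. Rsad2 (viperin), strongly inducible by interferon, lay between 0.0801 and 0.972 FPKM.

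The remaining members span high and low levels. Ifi35, a partner of Nmi, stood at 44.9, 47.6 and 50.4 FPKM in Csk(+/+) and at 54.4 and 61.0 in Csk(f/f)-labelled libraries. Both Csk(f/f)-labelled values were above all Csk(+/+) values, with a log2 difference of 0.27 ± 0.13 (SE) and an adjusted p of 0.261. Xaf1, a pro-apoptotic factor, was at 4.26 ± 0.260 FPKM (SD, n = 3) and 3.25 ± 0.989 (SD, n = 2). The chaperone gene Rtp4 did not exceed 0.686 FPKM. Among the antiviral GTPases, Mx1 and Mx2 did not exceed 0.393 and 0.216 FPKM, and RefSeq lists both in C57BL/6J as transcribed pseudogenes.

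Parp9 and Parp14 had lower Csk(f/f)-labelled values without passing the adjusted threshold. Parp9, which forms a complex with the ubiquitin ligase Dtx3l, stood at 20.6, 13.9 and 14.5 FPKM in Csk(+/+) and at 11.9 and 10.9 in Csk(f/f)-labelled libraries. Its log2 difference was -0.46 ± 0.20 (SE), adjusted p = 0.235, and it was -0.30 without Csk(+/+) replicate 1. Parp14, an ADP-ribosyltransferase of the same family, stood at 9.24, 8.76 and 6.12 FPKM and at 6.05 and 4.58, with a log2 difference of -0.51 ± 0.23 (SE), adjusted p = 0.246. For Parp14 the gap between the groups was narrow, 6.12 against 6.05. Dtx3l lies between them on chromosome 16 in the GRCm38 gene order, and its libraries overlapped, at 14.3, 12.0 and 7.44 against 9.00 and 9.66 FPKM.

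The GTPases held the largest difference between the groups. Gbp3, a guanylate-binding protein of cell-autonomous immunity, stood at 8.91, 5.81 and 7.61 FPKM in Csk(+/+) and at 3.92 and 3.48 in Csk(f/f)-labelled libraries. The lowest Csk(+/+) value exceeded the higher Csk(f/f)-labelled value, and the group means were 7.44 ± 1.56 (SD, n = 3) and 3.70 ± 0.317 (SD, n = 2). The log2 difference was -0.83 ± 0.22 (SE), adjusted p = 0.155, the largest in size of any tested member. With array weights, which give noisier libraries less weight (0.259 to Csk(+/+) replicate 3), Gbp3 was at -0.80 with an adjusted p of 0.0499, while that fit called 671 genes overall. Over all alternatives the adjusted p of Gbp3 ran from 0.0499 to 0.835. Its neighbour Gbp2, a gene of the same cluster on chromosome 3, showed another pattern, with 10.7, 4.75 and 4.61 FPKM in Csk(+/+) and 4.88 and 4.95 in Csk(f/f)-labelled libraries. Only replicate 1 stood apart, and the other 4 libraries lay within 4.61 to 4.95.

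Csk(+/+) replicate 1 was likewise highest for the immunity-related GTPases. Ifi47, the most abundant GTPase, stood at 50.3, 28.5 and 30.7 FPKM in Csk(+/+) and at 31.6 and 36.6 in Csk(f/f)-labelled libraries. Irgm1, which controls other GTPases of its family at membranes, stood at 8.94, 4.88 and 4.53 and at 4.86 and 4.28 FPKM. Igtp (Irgm3) stood at 13.03, 5.76 and 6.09 and at 9.60 and 8.86 FPKM. For Igtp both Csk(f/f)-labelled libraries lay between replicate 1 and the other Csk(+/+) libraries. The log2 differences of these genes were -0.05 ± 0.24 (SE) for Ifi47, -0.30 ± 0.28 for Irgm1, 0.22 ± 0.32 for Igtp and -0.29 ± 0.33 for Gbp2. Their adjusted p-values ran from 0.532 to 0.907 in limma. These 4 genes were the only tested members in which replicate 1 was at least 1.5-fold above both other Csk(+/+) libraries (4 of 24, 16.7%), where 1.89% of all tested genes met that measure. The measure was chosen after the values were seen.

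The median deviation of the 5 tested GTPases from their mean over the 5 libraries was 0.59 on the log2(FPKM + 1) scale in Csk(+/+) replicate 1, -0.21 and -0.19 in replicates 2 and 3, and -0.13 and -0.17 in the pair labelled Csk(f/f). The other 19 tested members had medians of 0.12, 0.04, -0.27, 0.08 and -0.01 in the same order. Replicate 1 was the one library with the neutrophil marker S100a8 above 0, at 2.45 FPKM, and likewise for S100a9 and Ngp. The neutrophil marker Elane was above 0 only in Csk(+/+) replicate 2, at 0.656 FPKM. Replicate 1 had the highest summed level of T cell markers, 0.645 FPKM, most of it Cd3d. It had the lowest summed level of natural killer markers, 0.817 FPKM. Whether these markers had a part in the GTPase values was not tested. Without replicate 1, the log2 differences were 0.19 for Ifi47, -0.03 for Irgm1, 0.56 for Igtp and 0.06 for Gbp2, and Gbp3 was at -0.71 with an adjusted p of 0.395. Some genes next to these members, from the list of further interferon-induced genes, were also highest in replicate 1. Gbp5 and Gbp7 lie beside Gbp3. Gbp5 was highest in replicate 1, at 2.15 FPKM, while Gbp7 was highest in Csk(+/+) replicate 3, at 0.305 FPKM. Irgm2, which lies beside Igtp on chromosome 11, stood at 5.52, 3.10 and 2.73 FPKM in Csk(+/+) and at 3.47 and 3.49 in Csk(f/f)-labelled libraries. Tgtp2, beside Ifi47, stood at 3.68, 1.01 and 0.386 and at 0.975 and 1.07. Tgtp2 has a near-identical copy, Tgtp1, so its level is uncertain.

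**Figure D2:**
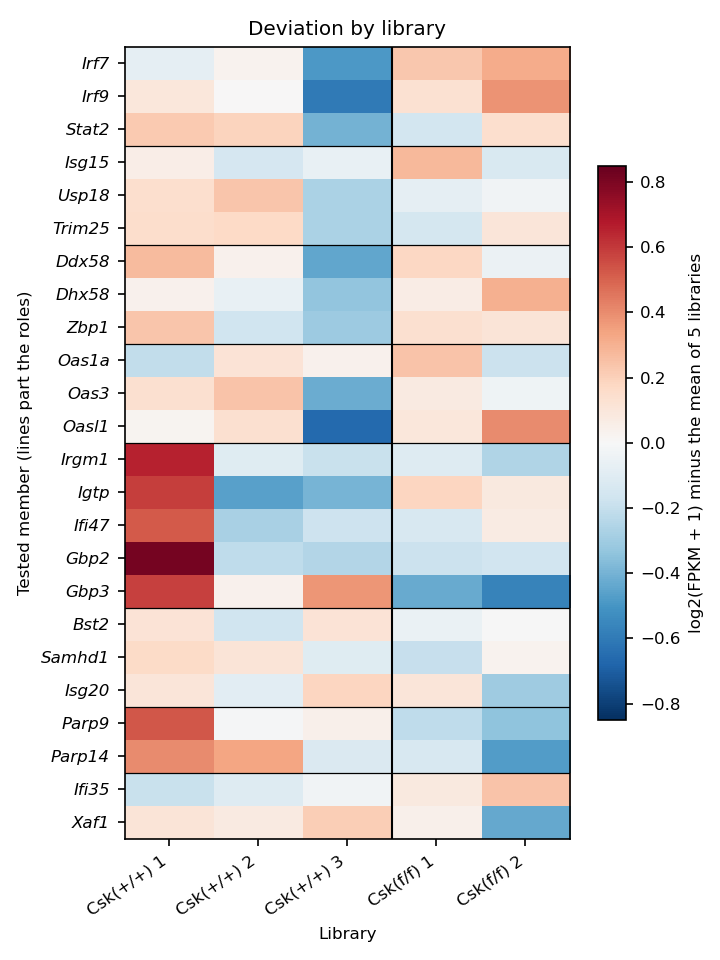
Deviation of each of the 24 tested members from its mean over the 5 libraries, on the log2(FPKM + 1) scale, with red above and blue below the mean and horizontal lines between roles. The GTPases are red in Csk(+/+) replicate 1, with a median of 0.59, and Gbp3 is blue in both Csk(f/f)-labelled libraries.

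Csk(+/+) replicate 3 stood low instead. It was the lowest library for 11 of the 24 tested members (45.8%), where it was lowest for 35.9% of all tested genes. Replicate 1 was the highest for 12 members (50%) and for 30.4% of all tested genes. These shares were not tested against each other. Irf9, Stat2, Ddx58, Oas3 and Oasl1 were at least 1.5-fold lower in replicate 3 than in both other Csk(+/+) libraries (5 of 24, 20.8%), where 14.3% of all tested genes were. The summed FPKM of the members was 527, 456 and 415 in Csk(+/+) and 445 and 479 in Csk(f/f)-labelled libraries. Both Csk(f/f)-labelled sums lay inside the Csk(+/+) range. For 21 of the 24 tested members the log2 fold between the highest and lowest Csk(+/+) library exceeded the size of the group difference. The fold was taken on FPKM and the difference on log2(FPKM + 1). The second scale understates the change of low genes, so the count may be too high. The same share over all tested genes was not computed, so the count is not shown to be particular to the members. Without replicate 3, no member passed the adjusted threshold, while 411 genes did overall. Gbp3 was then at -0.81 with an adjusted p of 0.0607 and Parp14 at -0.67 with 0.0614.

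Differences across all genes followed transcript GC content. Tested genes in the lowest decile of GC content had a median log2 difference of -0.47 and those in the highest decile 0.32. Among the members with lower Csk(f/f)-labelled values, Gbp3, Parp14 and Parp9 were at 45.9%, 46.3% and 47.5% GC. Among those with higher values, Irf7 and Ifi35 were at 55.4% and 54.1%. Beside the median of its own decile, 9 members lay above and 15 below. After each library's trend with GC content was subtracted, Irf7 moved from 0.45 to 0.21, Ifi35 from 0.27 to 0.07, Parp9 from -0.46 to -0.34, Parp14 from -0.51 to -0.31 and Gbp3 from -0.83 to -0.61. Irf9, at 50.4% GC, moved from 0.42 to 0.39. The smallest adjusted p among the members was then 0.419, for Gbp3, the median difference was -0.07, and 9 members had a higher mean. The sign turned for 4 members, Isg15, Oas1a, Oas3 and Ifi47. The part of GC content in these differences was not tested further.

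**Figure D3:**
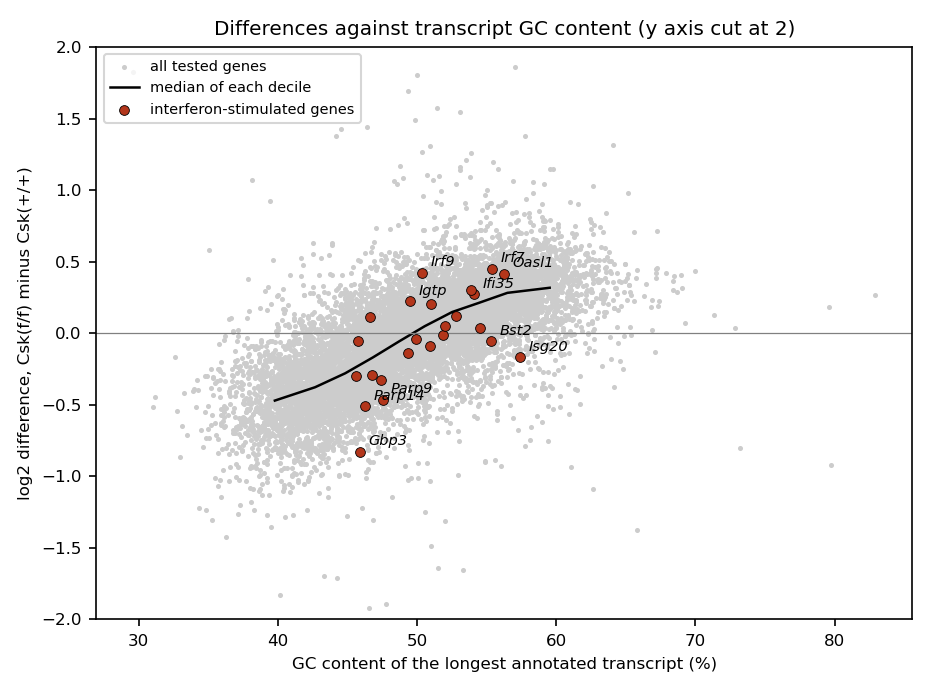
Log2 difference, Csk(f/f)-labelled minus Csk(+/+), of the tested genes against the GC content of the longest annotated transcript, with the vertical axis cut at 2 either way. Grey points are all genes with a GC value, the black line joins the medians of each decile, and red points are the 24 tested members. The line climbs from -0.47 to 0.32, and Gbp3 lies 0.66 below the median of its decile.

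The precision of each comparison can be read from the intervals. The median half-width of the 95% interval over the 24 members was 0.51 on the log2(FPKM + 1) scale, and 20 of the 24 intervals lay inside -1 to 1. The interval of Gbp3 ran from -1.34 to -0.32, that of Irf7 from 0.01 to 0.90 and that of Samhd1 from -0.47 to 0.19. A p that misses the threshold does not show that the groups were alike.

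**Figure D4:**
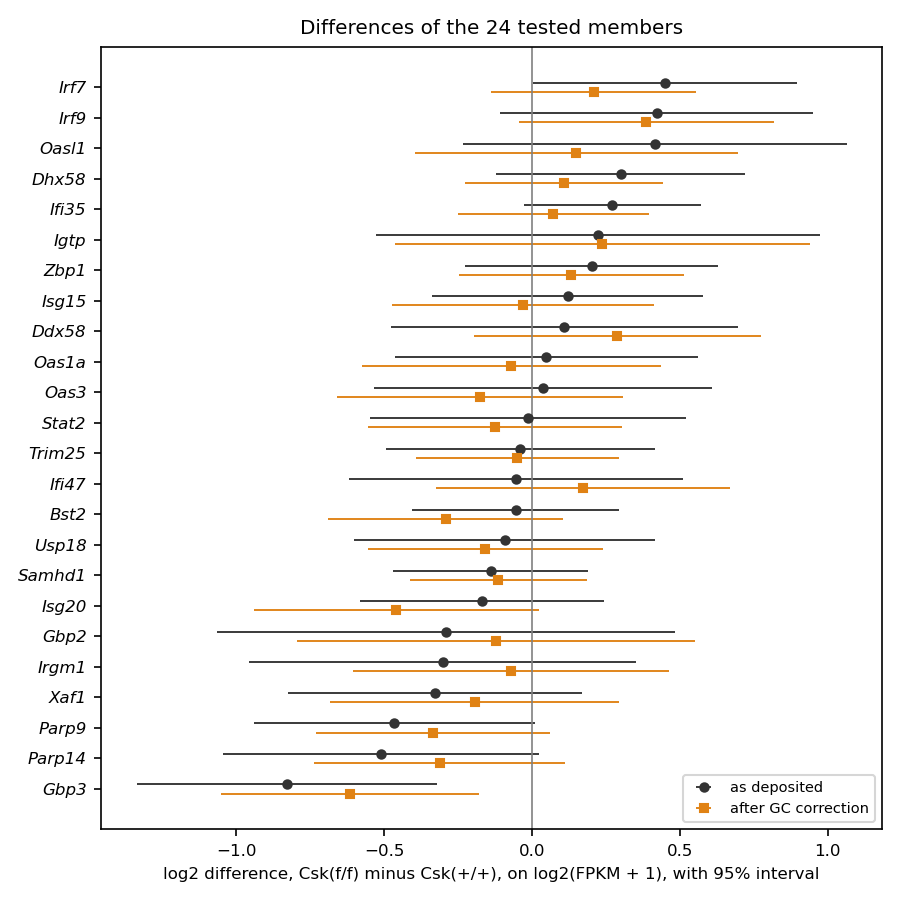
Log2 difference with its 95% interval for the 24 tested members, Csk(f/f)-labelled minus Csk(+/+), as deposited (black) and after the GC correction (orange). As deposited, the intervals of Irf7 and Gbp3 leave out 0, and after the correction that of Gbp3 (-1.05 to -0.18) does and that of Irf7 (-0.14 to 0.56) does not.

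Mean levels of the members spanned 0.0793 FPKM (Oas2) to 142 FPKM (Samhd1). By mean over the 5 libraries, 12 members were at 10 FPKM or more, 6 at 25 or more and 2 at 50 or more, and the 10 untested ones did not exceed 1.24 FPKM in any library. Members whose promoter window held the response element core had a median FPKM of 4.23 (14 genes), and those without it 17.5 (11 genes). The genes with the core and under 1 FPKM were Ifit1, Ifit3, Rsad2 and Ifih1. Those without it and above 25 FPKM were Samhd1, Ifi35, Ifi47 and Irf9. The 2 sets overlapped widely, from 0.158 to 26.0 FPKM with the core and from 0.425 to 142 without it. These levels are a description of 25 genes, and a promoter that lies elsewhere would be missed by this window.

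**Figure D5:**
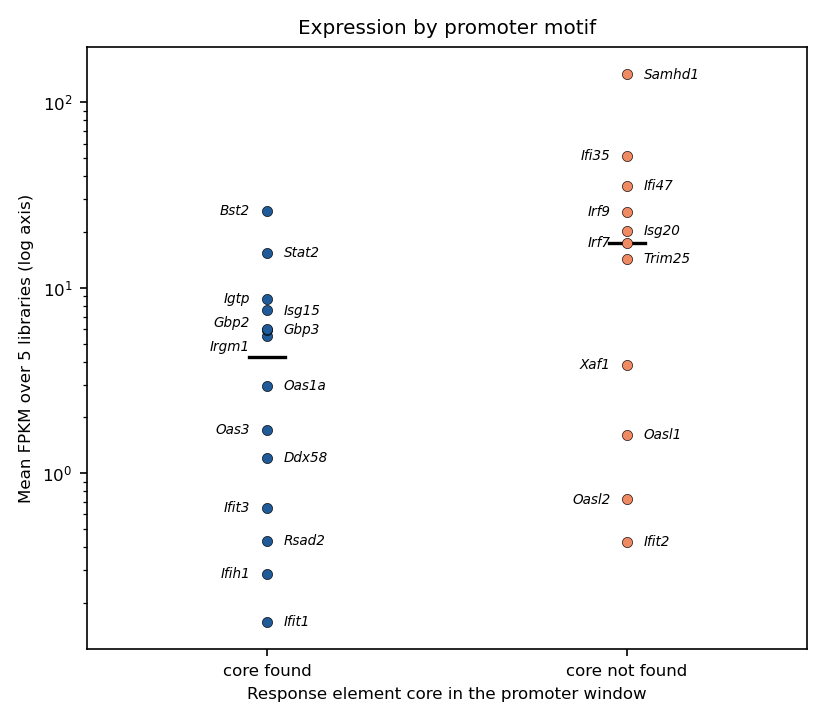
Mean FPKM over the 5 libraries (log axis) of the 25 members with a RefSeq promoter entry, split by whether the response element core was found in the window. Each point is a gene and the short line is the median, 4.23 with the core and 17.5 without it.

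The rest of the pathway was read from lists of related genes. Of 18 interferon ligand genes in the table none reached the level for testing, and 14 were listed at 0 in all 5 libraries, among them Ifnb1 and Ifng. The highest value was 0.632 FPKM, for Ifna6 in Csk(+/+) replicate 1. None of the 104 tested genes of the other 4 lists passed the adjusted threshold, against the same 0.0781% of all genes.

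All 11 receptor and JAK-STAT genes were tested, 2 with a higher and 2 with a lower value at an unadjusted p under 0.05 (8.07% and 13.6% of all tested genes), and their median difference was 0.11. Ifnar2, the signalling chain of the type I receptor, stood at 6.97, 9.35 and 6.49 FPKM in Csk(+/+) and at 14.2 and 11.9 in Csk(f/f)-labelled libraries, without overlap. Its log2 difference was 0.72 ± 0.20 (SE), adjusted p = 0.161, and it was 0.68 after the GC correction. Jak1, a kinase shared by both receptor types, stood at 94.0, 86.5 and 81.8 and at 63.6 and 66.7 FPKM, with a difference of -0.42 ± 0.12 (SE), adjusted p = 0.166. Il10rb, a chain of the lambda interferon receptor, stood at 9.16, 11.3 and 10.5 and at 16.2 and 13.8 FPKM, with a difference of 0.50 ± 0.17 (SE), adjusted p = 0.190.

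Of 18 tested genes of nucleic acid sensing upstream of interferon, 5 had a higher and 2 a lower value with p under 0.05 before adjustment, beside 8.07% and 13.6% of all tested genes, and the median of 0.23 became 0.01 after the GC correction. Tbk1, the kinase that phosphorylates Irf3 and Irf7, stood at 11.1, 7.62 and 8.83 FPKM in Csk(+/+) and at 5.40 and 5.11 in Csk(f/f)-labelled libraries, with a difference of -0.69 ± 0.20 (SE), adjusted p = 0.165. The DNA sensor Aim2 stood at 12.2, 9.64 and 8.24 and at 5.93 and 5.67 FPKM (-0.68 ± 0.20, adjusted p = 0.167). Unc93b1, which carries Toll-like receptors to endosomes, stood at 246, 285 and 239 and at 336 and 351 FPKM (0.42 ± 0.14, adjusted p = 0.176). The groups did not overlap for any of these 3 genes, which were named for their small p, so this adds no support. Over all tested genes, 20.7% did not overlap with higher and 24.5% with lower Csk(f/f)-labelled values. After the GC correction Tbk1 was at -0.44, Aim2 at -0.32 and Unc93b1 at 0.14.

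The 16 negative regulators, all tested, included 5 higher and 2 lower genes at that threshold, again beside 8.07% and 13.6% of all tested genes, with a median of 0.31 that became 0.07 after the GC correction. Ptpn2, a phosphatase that acts on JAK kinases, stood at 30.1, 19.1 and 27.9 FPKM in Csk(+/+) and at 15.2 and 12.7 in Csk(f/f)-labelled libraries, with a difference of -0.81 ± 0.22 (SE), adjusted p = 0.155. Nlrx1, an inhibitor of mitochondrial antiviral signalling, stood at 12.4, 16.9 and 16.8 and at 22.9 and 25.3 FPKM (0.63 ± 0.18, adjusted p = 0.161). Socs3, which blocks cytokine receptor signalling, stood at 5.71, 4.31 and 2.43 and at 8.46 and 7.48 FPKM (0.85 ± 0.29, adjusted p = 0.184). Ptpn2 was at -0.34, Nlrx1 at 0.33 and Socs3 at 0.54 after the GC correction.

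A further 84 interferon-induced genes were listed, of which 81 were in the table and 59 tested. At an unadjusted p under 0.05, 5 were higher and 10 lower, close to the 8.07% and 13.6% of all tested genes, and the median was -0.01. That median became 0.10 after the GC correction, where 38 of 58 genes had a higher mean, against 29 of 59 as deposited. The inflammatory protease Casp1 stood at 23.6, 21.8 and 22.4 FPKM in Csk(+/+) and at 12.8 and 10.7 in Csk(f/f)-labelled libraries, close within each group, with a difference of -0.89 ± 0.15 (SE), adjusted p = 0.128. Shisa5 stood at 234, 258 and 233 and at 329.7 and 374 FPKM (0.54 ± 0.13, adjusted p = 0.154). Pnpt1, a mitochondrial RNA exonuclease, stood at 9.14, 7.18 and 8.03 and at 5.42 and 4.21 FPKM (-0.65 ± 0.20, adjusted p = 0.169). After the GC correction Casp1 was at -0.47, Shisa5 at 0.33 and Pnpt1 at -0.18. Replicate 1 of Csk(+/+) exceeded both other Csk(+/+) libraries at least 1.5-fold for 5 of these 59 genes, Irf1, Gbp4, Gbp5, Irgm2 and Tgtp2. Irf1, a transcription factor induced by interferon gamma, stood at 54.0, 34.7 and 22.5 FPKM in Csk(+/+) and at 45.4 and 44.6 in Csk(f/f)-labelled libraries. Ifi27l1 stood at 42.3, 38.0 and 32.6 and at 41.8 and 50.2 FPKM, with overlapping groups.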

How the data were processed

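RNA from sorted cells was sequenced, and 1 FPKM value per gene and library was deposited. The authors made the FPKM values with TopHat2 2.0.8 and Cufflinks 2.1.1 on mm9, per the submitters' processing notes. The annotation and any scaling between libraries are not given in the sources used here. A repeated header line was left out. Depth was estimated from the steps between low FPKM values (9.75 M to 23.8 M fragments).

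Genes with at least 1 FPKM in at least 2 libraries were tested together on log2(FPKM + 1) in limma 3.58.1 (R 4.3.3) with a trended prior and two-sided Benjamini-Hochberg adjustment, threshold 0.05, no covariate. The pipeline was tested on simulated data. Transcript GC content came from the longest GRCm38 GENCODE transcript of each gene name, and 10118 tested genes (98.8%) had a value. The GC correction subtracted each library's lowess trend (span 0.3). No mm9 coordinates were used, and promoters are in RefSeq GRCm38.p6 coordinates. Values in every library are given for members with an unadjusted p under 0.05, for members without overlap and a difference of at least 0.58, for the most abundant member of each role and for up to 3 genes of each related list with the smallest p. The other members with values in every library (Parp14, Irgm1, Igtp and Gbp2), and genes named for their levels in Csk(+/+) replicate 1, were chosen after their values were seen. The members and lists were chosen with earlier results of these data known. A marker gene and a gene of the related lists are not reported here.

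Alternatives were other pseudocounts, filters, scalings and spread estimates, array weights, the GC correction, a replicate block and each library left out.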

Additional observations from a re-analysis of the deposited data

How the results depend on the processing

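No member passed the adjusted threshold under any alternative except array weights, where 1 did (Gbp3, adjusted p = 0.0499). The number of tested members with a higher mean was 7 of 16 with a filter at 5 FPKM, where fewer genes were tested. Genes called among the related lists, 0 as reported, were 7 with array weights, 5 with the replicate block, 1 with the replicate block and GC correction, 1 with the GC correction without Csk(+/+) replicate 3, and 0 to 3 when 1 library was left out (3 without Csk(+/+) replicate 3, which also raised the calls over all genes from 8 to 411). Over all genes, array weights called 671, the replicate block 492, the replicate block with GC correction 173, the GC correction without Csk(+/+) replicate 3 gave 40, robust empirical Bayes 12, and no filter, or leaving out either Csk(f/f)-labelled library, gave 5. The causes were not tested.

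Replicate numbers were not used to pair libraries. The labels do not say that equal numbers share an animal or day, and deviations of same-numbered libraries correlated at -0.13 and 0.11. With the replicate block no member was called and their median difference was -0.13. No Csk(f/f)-labelled library has the number 3, so the block takes Csk(+/+) replicate 3 out of the group difference. The differences were the same as without that library, with Gbp3 at -0.81 in both fits. The block is therefore not a separate check.

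The sign of small differences turned in places. With the GC correction Oas1a was at -0.070, Ifi47 at 0.17 and Csk at -0.14. With the replicate block and GC correction Ifi47 was at 0.13 and Csk at -0.074. With the GC correction without Csk(+/+) replicate 3, Ifi47 was at 0.13 and Csk at -0.075. With the GC correction without Csk(+/+) replicate 1, an alternative chosen after seeing the data, Oas1a was at -0.18, Ifi47 at 0.36, Irgm1 at 0.14, Gbp2 at 0.17 and Csk at -0.19. With each library left out in turn, the difference ran from -0.16 to 0.26 for Oas1a, -0.20 to 0.19 for Ifi47, -0.18 to 0.086 for Trim25 and -0.47 to 0.058 for Gbp2. Gbp3 lay between -0.98 and -0.51 and Irf7 between 0.10 and 0.56 over all alternatives.

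Members under 1 FPKM rest on few fragments (at most 79.7 in a library by the estimated depth), and with 2 Csk(f/f)-labelled libraries a left-out fit assumes that the lone library varies like the other group.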
